A study of Mus musculus with 50 samples.

Results

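The genes described here build, move, store and export cholesterol. They are 33 genes of the 55416 in the deposited tables, chosen by symbol: 18 enzymes of cholesterol synthesis, 5 regulators of the SREBP transcription factors, 4 genes of sterol trafficking and storage, 5 genes of sterol efflux and of the LXR receptors, and the fatty acid desaturase gene Scd2. They were read in 50 poly-A RNA libraries of RAW264.7, a mouse macrophage line, in a study of loss or inhibition of the kinases SGK1 and SGK3 at rest and after stimulation. The label macrophage was checked on 8 marker genes, all of which were above 1 TPM in every library.

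Control cells carried an empty-vector sgRNA, and the edited lines carried a CRISPR knockout of SGK3, of SGK1, or of both (the double knockout). The labels name 1 line per genotype and do not say whether it is a clone. Cells were left untreated, here called at rest, or received 10 µg/mL DMXAA for 2 h. DMXAA binds mouse STING, the sensor of cyclic dinucleotides that starts the type I interferon response. One group of control cells received 500 nM Sanofi-14h, an SGK inhibitor, for 2 h before DMXAA. A DMSO vehicle is mentioned, but which control libraries received it is not given in the labels. The labels give 3 batches. In b1, 3 libraries came from untreated control cells, 5 from control cells with DMXAA and 5 from control cells with inhibitor and then DMXAA. The SGK3 knockout gave 3 untreated and 5 treated b1 libraries, and the double knockout 5 treated ones. In b2, untreated libraries numbered 3 for each of control, SGK1 knockout and double knockout cells. Treated b2 libraries numbered 4 for control, 4 for SGK1 knockout and 3 for double knockout cells. Batch b3 held 4 libraries titled as reruns. They were 1 SGK1 knockout library (S) and 2 double knockout libraries (V and W) with DMXAA, and 1 control library (J). The title of J says untreated, but the sample code in that title has the form used for treated control libraries. The treatment field of J says DMXAA, and because these labels disagree J was given no group. Libraries of b1 carry numbers and those of b2 and b3 letters.

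Animal cells make cholesterol from acetyl-CoA through mevalonate, squalene and lanosterol. When the endoplasmic reticulum is poor in sterol, Scap escorts the SREBP factors, encoded by Srebf1 and Srebf2, to the Golgi, where they are cleaved and freed to switch on the synthesis genes; the Insig proteins hold Scap back when sterol is plentiful. Oxysterols activate the LXR receptors, which in macrophages switch on the exporters Abca1 and Abcg1 and the ubiquitin ligase gene Mylip.

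Total counts ran from 57859509 to 112007140 per library, and 32 of the 33 genes had a count in every library and were tested. Ch25h, whose enzyme makes an oxysterol, was listed at 0 counts and 0 TPM in all 50 libraries and was not tested. Sgk1 was at 50.5 ± 3.16 CPM (counts scaled to library size, mean ± SD) in b1 control cells with DMXAA and at 4.82 ± 1.12 in the double knockout, and at 35.1 ± 6.52, 4.26 ± 2.34 and 2.47 ± 0.686 in b2 control, SGK1 knockout and double knockout cells with DMXAA. Sgk1 was also lower than in treated b1 control cells in the treated SGK3 knockout (log2 fold change -1.23 ± 0.31 SE, adjusted p = 0.00495) and with the inhibitor (log2 fold change -2.13 ± 0.32 SE, adjusted p = 7.01e-06). Sgk3 transcript was called lower in no edited line: it missed the threshold in resting SGK3 knockout cells (log2 fold change -0.08 ± 0.07 SE, adjusted p = 0.894) and was higher in the treated b1 double knockout (log2 fold change 0.23 ± 0.06 SE, adjusted p = 0.00392). A count per gene does not read the edit itself. Summed markers of fibroblasts, T cells, B cells, epithelium and endothelium stayed at or under 1.99 TPM, against 6690 to 13440 TPM for the macrophage markers. Summed hepatocyte markers (Alb, Apoa1 and Ttr) were under 1 TPM in b1 and b3 but were at 36.4, 31.5 and 26.4 TPM in b2 libraries F, X and R, and from 0.679 to 9.66 TPM in the others of b2. In b2, 4 libraries had a slope of log2 CPM on log2 transcript length, relative to their batch, above 0.1: E (0.152) and F (0.230) of the resting SGK1 knockout, P (0.122) of the treated SGK1 knockout and X (0.129) of the treated double knockout. Slopes below -0.1 were seen in control libraries B (-0.131), L (-0.114) and N (-0.113) of b2, which were left out only one at a time. Leaving out E and F leaves 1 resting SGK1 knockout library, D, which is then assumed to vary like the other groups. For the genes named with values per library, calls that ended without E, F, P and X together, or without any one library, are given with the adjusted p in parentheses. Beyond that, the part of the hepatocyte transcripts in the results was not tested.

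Per transcript length, levels in TPM (transcripts scaled to length and library size) ranked Fdps, which makes farnesyl diphosphate, first among the 33 genes. The median of its 12 group means in b1 and b2 was 489 TPM. Scd2 followed at 420 and Srebf2, the main SREBP of sterol synthesis, at 177. Of the other synthesis enzymes, Msmo1 (a methylsterol oxidase) and Sqle (squalene epoxidase) stood at 133 and 113 TPM, and Tm7sf2, a sterol reductase, was lowest at 7.84. Abca1 and Nr1h3, which encodes the LXR alpha receptor, were the lowest detected genes of all, at 2.37 and 2.56 TPM. In b1, Hmgcs1 (ENSMUSG00000093930.3, GRCm39 chr13:120151915-120169796), which makes HMG-CoA at the entry to the mevalonate branch, had a mean of 65.3 ± 10.4 TPM in resting control cells (SD, n = 3) and 99.9 ± 0.614 in resting SGK3 knockout cells. With DMXAA the means were 43.9 ± 2.76 and 53.1 ± 2.38 TPM (n = 5 each).

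**Figure D1:**
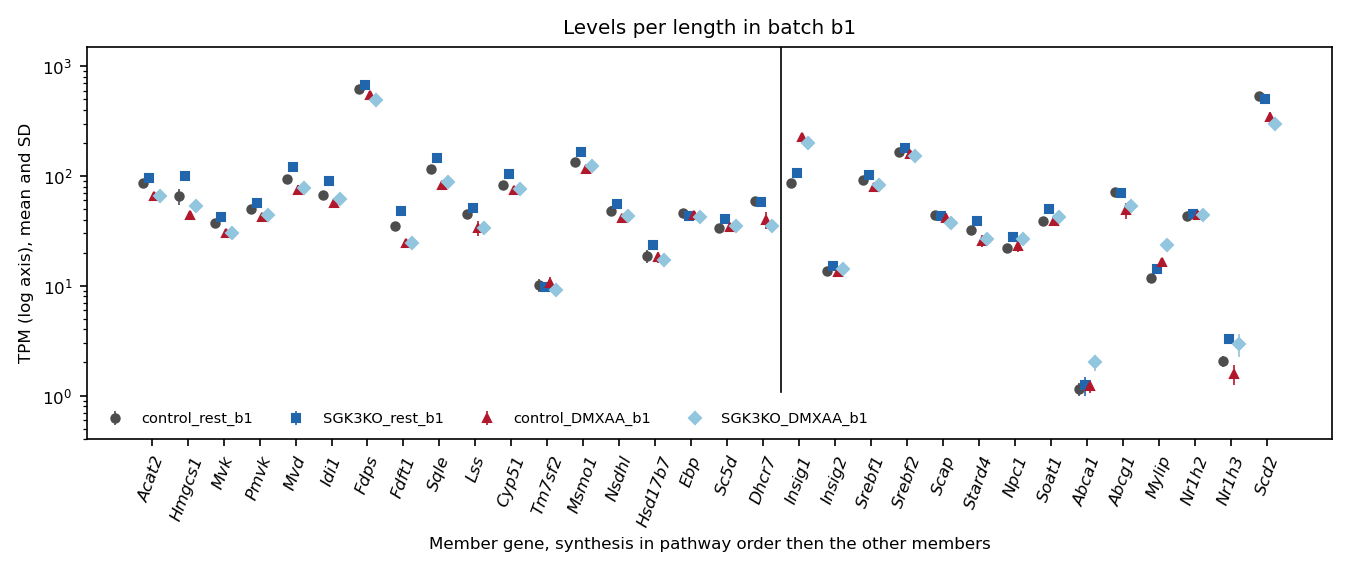
Mean TPM (log axis, bars are SD over libraries) of the 32 detected genes in 4 groups of batch b1, with the 18 synthesis genes left of the vertical line in pathway order. Hmgcs1 is highest in resting SGK3 knockout cells, and Insig1 stands higher in both groups with DMXAA than in both at rest.

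The start site regions of 26 of the 33 genes were found among RefSeq promoters (GRCm38.p6, 250 bases before to 50 after the annotated start). Of these genes, 1 held the sterol regulatory element core TCACNCCAC on either strand, against 1.44% of all genes with a promoter. The NF-Y box CCAAT, whose factor works beside the SREBP factors at sterol genes, was found in 20 of 26, against 41.1% of all genes. The LXR direct repeat was found in 2, Abca1 and Srebf1, against 0.226% of all genes. The promoters printed are those of Hmgcs1, the synthesis gene with the largest fall in control cells, of Insig1 and Mylip, which rose with DMXAA in each line tested, and of Abca1, which holds the LXR repeat. Capitals mark the matches to the 3 motifs on either strand, so that CCAAT on the other strand reads ATTGG, and no matches overlapped in these 4 promoters. The Hmgcs1 window is chr13:119690101-119690400 (plus strand) and holds the sterol element 137 bases before the start and 4 NF-Y boxes. The windows of Insig1 (chr5:28071162-28071461, plus strand) and Mylip (chr13:45389492-45389791, plus strand) hold 1 and 3 NF-Y boxes, and that of Abca1 (chr4:53159846-53160145, minus strand) holds the LXR repeat. A match is a run of letters and not a measured binding site.
Hmgcs1: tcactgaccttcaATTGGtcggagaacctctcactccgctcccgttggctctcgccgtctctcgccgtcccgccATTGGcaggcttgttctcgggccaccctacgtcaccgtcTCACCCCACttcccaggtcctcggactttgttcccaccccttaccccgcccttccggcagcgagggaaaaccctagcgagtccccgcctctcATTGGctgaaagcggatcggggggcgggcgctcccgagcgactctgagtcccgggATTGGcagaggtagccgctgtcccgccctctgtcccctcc
Insig1: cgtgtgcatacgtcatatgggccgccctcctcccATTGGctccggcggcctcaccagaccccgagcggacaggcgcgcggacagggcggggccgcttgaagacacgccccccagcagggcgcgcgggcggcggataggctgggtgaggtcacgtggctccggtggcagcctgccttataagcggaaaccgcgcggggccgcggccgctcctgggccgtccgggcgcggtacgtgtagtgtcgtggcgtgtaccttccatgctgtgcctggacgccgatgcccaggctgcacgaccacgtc
Mylip: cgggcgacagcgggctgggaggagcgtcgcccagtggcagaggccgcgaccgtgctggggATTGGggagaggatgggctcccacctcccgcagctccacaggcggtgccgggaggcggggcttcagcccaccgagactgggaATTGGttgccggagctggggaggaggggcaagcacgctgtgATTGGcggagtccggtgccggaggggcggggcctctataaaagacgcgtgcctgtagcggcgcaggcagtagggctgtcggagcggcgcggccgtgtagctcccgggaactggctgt
Abca1: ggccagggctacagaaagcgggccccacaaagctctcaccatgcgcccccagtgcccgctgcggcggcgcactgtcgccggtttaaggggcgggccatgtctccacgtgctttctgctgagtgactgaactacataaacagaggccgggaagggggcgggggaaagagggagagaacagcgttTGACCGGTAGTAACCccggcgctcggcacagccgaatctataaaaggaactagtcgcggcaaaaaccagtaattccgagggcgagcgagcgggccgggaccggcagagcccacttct

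In control cells, DMXAA was followed within 2 h by lower transcript levels of part of the synthesis pathway, by higher Insig1 and Mylip and by lower Scd2, in both batches. In b1, 8 of the 18 synthesis genes fell (Acat2, Hmgcs1, Mvk, Mvd, Fdft1, Sqle, Lss and Dhcr7), and the other 10 did not pass the threshold of an adjusted p of 0.05. The median log2 fold change of the 18 genes was -0.18, with a range of -0.51 to 0.12, against 0.01 over all genes tested, of which 10.8% rose, 10.3% fell and 21.1% were called in either direction. In b2, 9 of the 18 fell (Acat2, Hmgcs1, Idi1, Fdft1, Sqle, Lss, Cyp51, Msmo1 and Sc5d), with a median of -0.28 against 0.00 over all genes, of which 4.74% rose, 3.06% fell and 7.8% were called in either direction. The 5 genes that fell in both batches were Acat2, Hmgcs1, Fdft1, Sqle and Lss, out of 8 in b1 and 9 in b2. The share of all genes that fell in both was not counted. In bulk RNA, fewer cells with a transcript and less of it per cell cannot be told apart.

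Hmgcs1 was at 95.7, 128 and 107 CPM in the resting b1 control libraries and at 81.4, 73.2, 83.2, 76.8 and 72.5 with DMXAA. The treated libraries all lay below the resting ones (log2 fold change -0.51 ± 0.08 SE, adjusted p = 1.8e-06). In b2 the resting libraries were at 139, 119 and 129 CPM and the treated ones at 73.6, 66.5, 83.01 and 65.8, again without overlap (log2 fold change -0.85 ± 0.08 SE, adjusted p = 1.41e-10). Sqle, which makes squalene epoxide ahead of the first sterol, fell from 157, 183 and 165 CPM to 128, 128, 127, 121 and 122 in b1 (log2 fold change -0.43 ± 0.06 SE, adjusted p = 5.82e-08). In b2 it fell from 182, 177 and 195 to 139, 144, 133 and 124 CPM (log2 fold change -0.46 ± 0.06 SE, adjusted p = 1.2e-07), and in neither batch did the groups overlap. Dhcr7, the reductase of the final step, fell in b1 from 74.6, 78.5 and 71.02 to 60.6, 62.5, 54.3, 45.95 and 50.8 CPM (log2 fold change -0.45 ± 0.09 SE, adjusted p = 0.000169), while its b2 value of -0.28 did not pass (adjusted p = 0.0671). Fdft1, squalene synthase, had the second largest fall in b2, from 51.4, 52.6 and 48.03 to 35.02, 36.8, 31.1 and 34.5 CPM (log2 fold change -0.57 ± 0.11 SE, adjusted p = 0.000244). All treated libraries of these 2 genes were below all resting ones in those batches. Under the alternatives run, none of the named calls on these genes was lost.

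**Figure D2:**
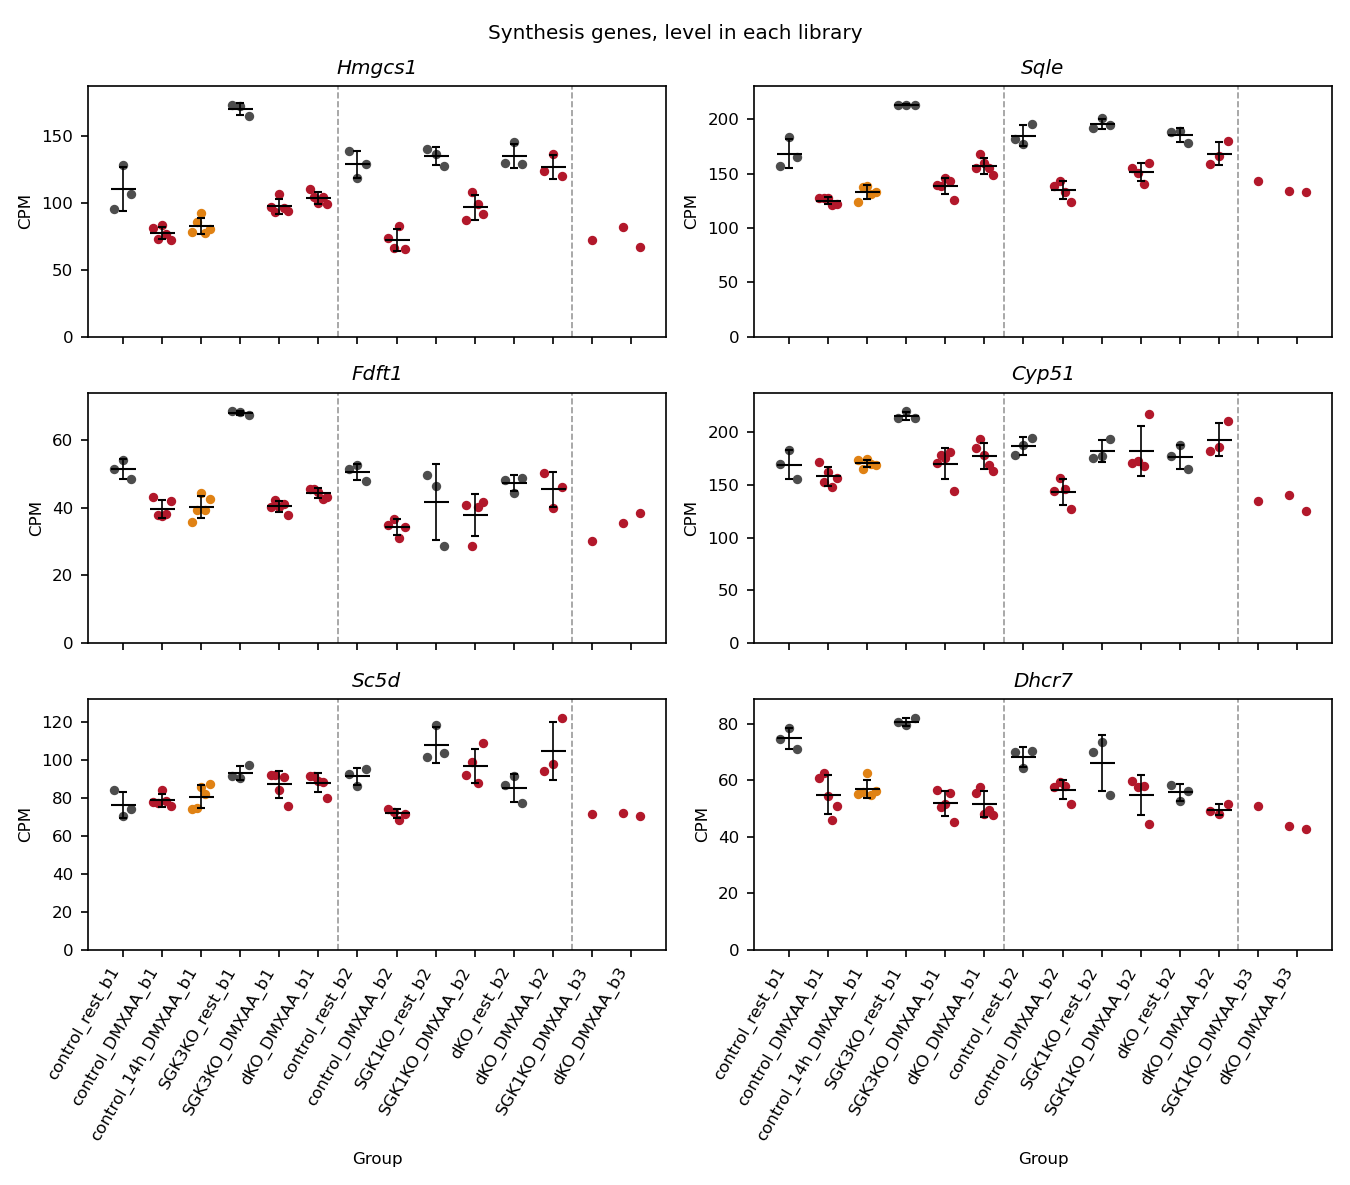
CPM of 6 synthesis genes in each library of each group, with the mean and SD (groups of 3 or more); grey points are at rest, red with DMXAA and orange with inhibitor and DMXAA, and dashed lines part batches b1, b2 and b3. Hmgcs1 in treated double knockout cells lies between 120.2 and 137 CPM in b2 and at 67.0 and 81.7 CPM in the b3 reruns.

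Among the 14 tested genes outside synthesis, 2 rose and 3 fell in b1 control cells and 2 rose and 2 fell in b2, with medians of 0.03 and 0.05. Insig1 (ENSMUSG00000045294.12, GRCm39 chr5:28276361-28283660), which retains Scap in the endoplasmic reticulum and is itself an SREBP target, rose in both batches. It stood at 120.2, 121 and 114 CPM at rest and 346, 325, 338, 331 and 330.4 with DMXAA in b1 (log2 fold change 1.50 ± 0.10 SE, adjusted p = 2.28e-16). In b2 it stood at 115, 109 and 114 against 196, 214, 202 and 216 CPM (log2 fold change 0.87 ± 0.10 SE, adjusted p = 6.76e-09), with all treated libraries above all resting ones in both batches. Mylip (ENSMUSG00000038175.11, GRCm39 chr13:45543218-45565498), a ubiquitin ligase that sends lipoprotein receptors to degradation, rose from 20.02, 18.7 and 17.04 to 27.4, 27.2, 28.3, 27.9 and 27.1 CPM in b1 (log2 fold change 0.57 ± 0.08 SE, adjusted p = 2.8e-07). In b2 it rose from 22.4, 21.5 and 22.5 to 40.8, 42.3, 44.3 and 43.1 CPM (log2 fold change 0.94 ± 0.08 SE, adjusted p = 1.04e-11). Neither batch showed overlap between resting and treated libraries. Scd2, which desaturates stearoyl-CoA, fell from 1508, 1575 and 1516 to 1063, 1131, 1019, 931 and 938 CPM in b1 (log2 fold change -0.59 ± 0.07 SE, adjusted p = 6.64e-09) and from 1759, 1592 and 1825 to 1200, 1241, 1252 and 1067 CPM in b2 (log2 fold change -0.54 ± 0.07 SE, adjusted p = 5.21e-07). Stard4, a soluble sterol carrier and SREBP target, fell in both (log2 fold change -0.31, adjusted p = 0.00128, and -0.28, adjusted p = 0.0168).

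The efflux genes did not move together. Abcg1, which exports cholesterol to lipoprotein particles, fell in b1 from 226, 215 and 204 to 172, 180.3, 150, 124 and 140.1 CPM (log2 fold change -0.49 ± 0.10 SE, adjusted p = 0.000199), with no overlap. In b2 it was at 196, 173 and 237 CPM at rest and 237, 248, 232 and 207 with DMXAA, groups that overlapped (log2 fold change 0.18, adjusted p = 0.37). Abca1, which loads lipid-poor apolipoprotein with cholesterol, gave 0.21 in b1 (adjusted p = 0.49) and 0.45 in b2 (adjusted p = 0.117). The receptors Nr1h2 and Nr1h3, Srebf1, Srebf2, Scap, Insig2, Npc1 and Soat1 passed in neither batch. The response of control cells in b1 minus that in b2 was tested directly, and 3 of 32 genes passed (of all genes, 1.81% had positive, 1.4% had negative differences and 3.21% were called in either direction). These were Insig1 (difference 0.63 ± 0.13 SE on the log2 scale, adjusted p = 0.00253), Abcg1 (-0.67 ± 0.15, adjusted p = 0.00349) and Sc5d, a late sterol desaturase (0.40 ± 0.12, adjusted p = 0.0423). The Sc5d call ended without any one of resting control b1 libraries 2 and 3, treated control b1 libraries 1, 3 and 4, resting control b2 libraries A and C and treated control b2 libraries K, L, M and N, with no filter on low counts and with limma on TPM, with adjusted p from 0.051 to 0.239.

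**Figure D3:**
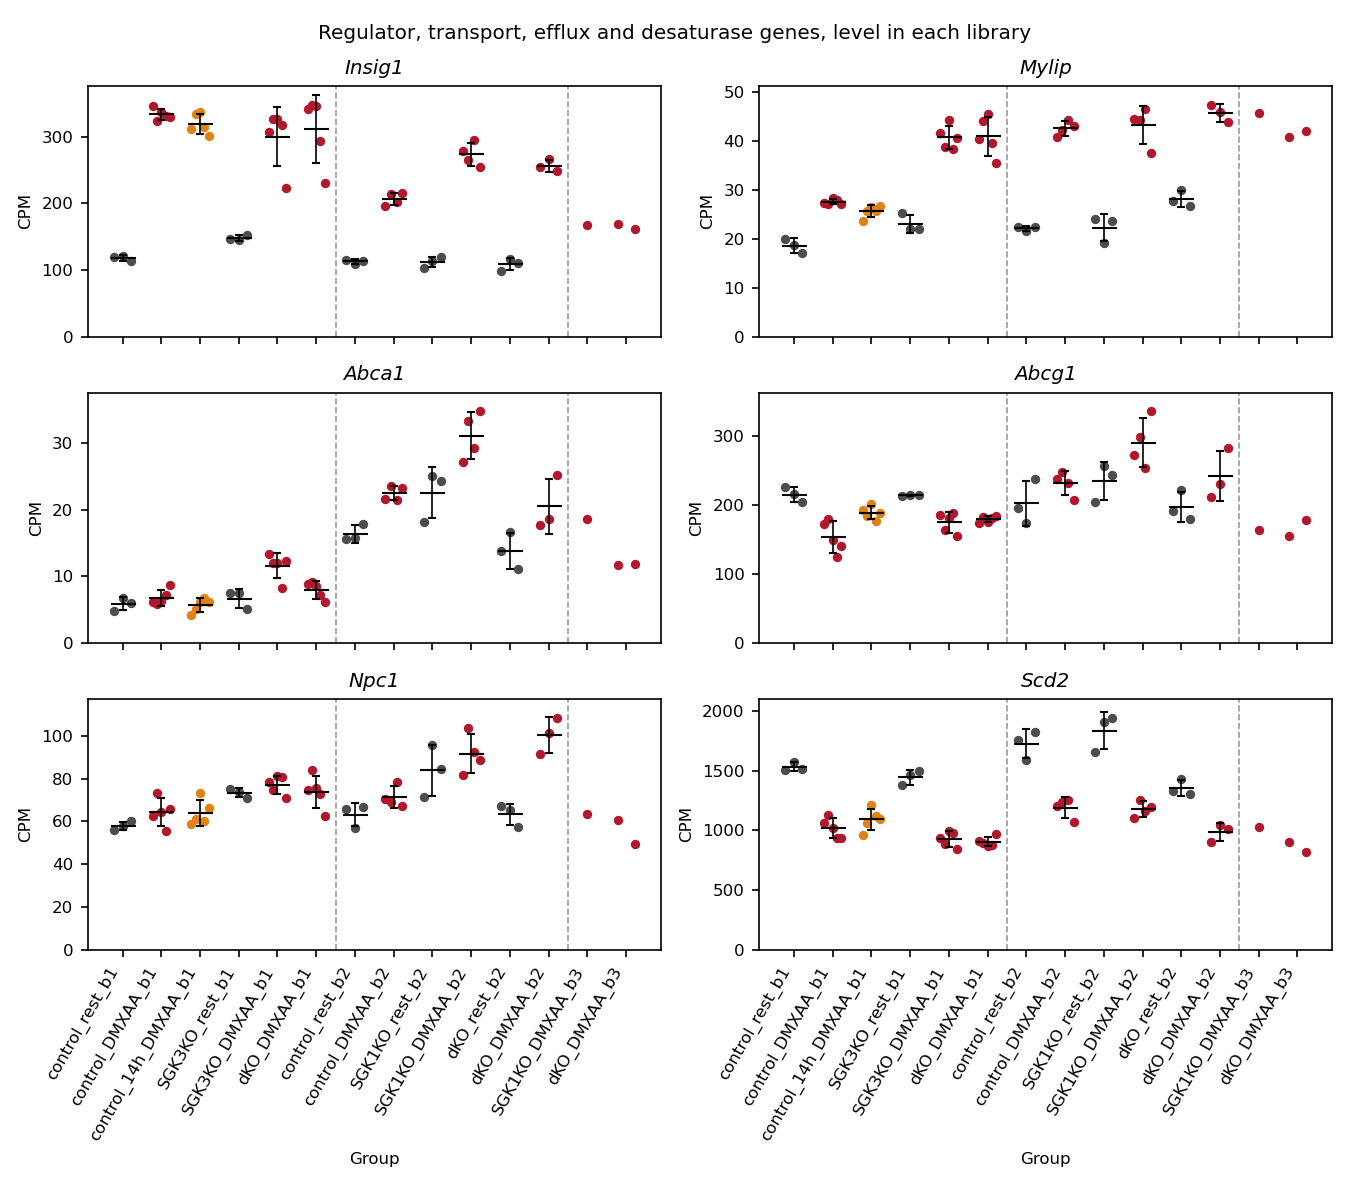
CPM of 6 genes outside synthesis in each library of each group, drawn as in the plot of synthesis genes (grey at rest, red with DMXAA, orange with inhibitor and DMXAA, mean and SD for groups of 3 or more). Insig1 and Mylip are higher with DMXAA than at rest in each line that has both, and Scd2 is lower. In each group present in both b1 and b2, Abca1 lies higher in b2.

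In the SGK3 knockout the same treatment was followed by a fall in most of the pathway. Of the 18 synthesis genes, 14 fell (Acat2, Hmgcs1, Mvk, Mvd, Idi1, Fdps, Fdft1, Sqle, Lss, Cyp51, Msmo1, Nsdhl, Hsd17b7 and Dhcr7) and 4 did not pass, with a median of -0.37 and a range of -0.82 to 0.09. Of all genes tested, 8.58% rose, 7.96% fell and 16.5% were called in either direction, with a median of 0.00. In 15 of the 18, all treated libraries were below all resting ones, as in 14.4% of all genes. Hmgcs1 fell from 174, 172 and 165 to 96.8, 92.9, 106, 96.5 and 94.1 CPM (log2 fold change -0.82 ± 0.08 SE, adjusted p = 2.91e-11). Fdft1 fell from 68.6, 68.4 and 67.5 to 40.3, 42.4, 40.2, 41.2 and 38.03 CPM (log2 fold change -0.77 ± 0.10 SE, adjusted p = 1.72e-07), and Dhcr7 from 80.5, 79.4 and 82.1 to 56.4, 50.4, 51.5, 55.4 and 45.2 CPM (log2 fold change -0.66 ± 0.09 SE, adjusted p = 2.98e-07). None of the 3 genes had overlapping groups. Outside synthesis, 3 genes rose and 4 fell. Insig1 rose from 146, 145 and 153 to 308, 327, 327, 318 and 223 CPM (log2 fold change 1.01 ± 0.10 SE, adjusted p = 2.87e-11), and the lowest treated library, 5, still lay above every resting one. Mylip rose from 25.2, 22.1 and 22.04 to 41.6, 38.8, 44.4, 38.5 and 40.6 CPM (log2 fold change 0.80 ± 0.08 SE, adjusted p = 1.27e-10). Abca1 rose from 7.51, 7.43 and 5.09 to 13.3, 12.1, 11.98, 8.32 and 12.3 CPM (log2 fold change 0.78 ± 0.17 SE, adjusted p = 0.000624), without overlap, and treated library 4 was the lowest of its group. The 4 genes that fell were Srebf1, Stard4, Abcg1 and Scd2.

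The response of the SGK3 knockout minus that of control cells passed in 0 of 32 genes with edgeR (of all genes, 0.0819% had positive, 0.109% had negative differences and 0.191% were called in either direction). At an unadjusted p under 0.05 the count was 11, of which 8 were synthesis genes with negative differences, and DESeq2 called 1. The differences of the 18 synthesis genes had a median of -0.21 and ran from -0.40 to 0.06. The larger number of calls in the SGK3 knockout is therefore not shown to be a larger response.

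In the SGK1 knockout, DMXAA was followed by a fall in 7 of 18 synthesis genes (Hmgcs1, Sqle, Lss, Tm7sf2, Msmo1, Hsd17b7 and Dhcr7), with a median of -0.14 against 0.00 over all genes, of which 12.5% rose, 11.6% fell and 24.1% were called in either direction. Hmgcs1 fell from 141, 137 and 128 to 87.5, 108, 99.2 and 91.5 CPM (log2 fold change -0.49 ± 0.08 SE, adjusted p = 1.41e-05), without overlap. Hsd17b7, a sterol keto-reductase, fell from 59.4, 83.8 and 81.6 to 50.6, 54.1, 49.2 and 45.5 CPM (log2 fold change -0.60 ± 0.10 SE, adjusted p = 9.58e-06), also without overlap. Tm7sf2 fell from 4.01, 4.2 and 7.23 to 3.12, 3.35, 4.51 and 1.84 CPM with overlapping groups (log2 fold change -0.70 ± 0.24 SE, adjusted p = 0.0293). The Hsd17b7 call ended without libraries E, F, P and X (0.143). The Tm7sf2 call ended without any one of treated SGK1 knockout libraries O (0.0581) and R (0.119) and resting SGK1 knockout library F (0.381), without libraries E, F, P and X (0.618) and with its groups fitted alone (0.302). Outside synthesis, 5 genes rose (Insig1, Insig2, Abca1, Abcg1 and Mylip) and 4 fell (Srebf1, Scap, Stard4 and Scd2). Insig1 rose from 103, 114 and 119 to 278, 265, 296 and 255 CPM (log2 fold change 1.28 ± 0.10 SE, adjusted p = 1.37e-13). Mylip rose from 24.1, 19.2 and 23.7 to 44.5, 44.4, 46.6 and 37.7 CPM (log2 fold change 0.94 ± 0.08 SE, adjusted p = 5.53e-12), and Scd2 fell from 1654, 1905 and 1944 to 1099, 1253, 1163 and 1196 CPM (log2 fold change -0.65 ± 0.07 SE, adjusted p = 4.8e-09). In these 3 genes the treated libraries lay apart from the resting ones. Without E, F, P and X, which leaves D as the one resting library (n = 1), 7 genes in all were called in this response in place of 16; 10 were called without treated knockout library R. The response of the SGK1 knockout minus that of control cells passed in 0 of 32 genes with edgeR (of all genes, 1.74% had positive, 1.09% had negative differences and 2.83% were called in either direction), with 11 at an unadjusted p under 0.05 and 1 called by DESeq2. Without resting SGK1 knockout library D the count was 5.

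In the double knockout, no synthesis gene fell past the threshold with DMXAA in b2. Of 18, 1 rose (Sc5d) and 17 did not pass, with a median of -0.06 and a range of -0.34 to 0.34 against -0.02 over all genes, of which 7.44% rose, 6.51% fell and 14% were called in either direction. Among the 18, 1 was lower at an unadjusted p under 0.05, and DESeq2 called 8 of the 32 genes, as edgeR did. Hmgcs1 was at 130.1, 146 and 129 CPM at rest and 124, 137 and 120.2 with DMXAA, and the groups overlapped (log2 fold change -0.10 ± 0.09 SE, adjusted p = 0.53). Sqle was at 189, 189 and 178 CPM at rest and 159, 167 and 179.6 with DMXAA (log2 fold change -0.15 ± 0.06 SE, adjusted p = 0.119), overlapping as well. Sc5d was at 86.9, 91.7 and 77.1 against 93.9, 97.9 and 122 CPM, with each treated library above each resting one (log2 fold change 0.29 ± 0.09 SE, adjusted p = 0.0233). The Sc5d call ended without any one of treated double knockout library X (0.3) and resting double knockout library I (0.172), without libraries E, F, P and X (0.252), with the reruns added (0.705), with its groups fitted alone (0.299) and with limma on TPM (0.173). Of the genes outside synthesis, 5 rose (Insig1, Npc1, Soat1, Abca1 and Mylip) and Srebf1 and Scd2 fell. Insig1 rose from 98.7, 117 and 110.3 to 255, 266 and 249 CPM (log2 fold change 1.23 ± 0.10 SE, adjusted p = 2.13e-12), and Mylip from 27.8, 29.9 and 26.7 to 47.5, 46.1 and 43.9 CPM (log2 fold change 0.69 ± 0.09 SE, adjusted p = 6.19e-08). Npc1, which exports cholesterol from lysosomes, rose from 67.02, 65.2 and 57.5 to 91.5, 101 and 108 CPM (log2 fold change 0.66 ± 0.10 SE, adjusted p = 4.8e-06). The groups of these 3 genes did not overlap.

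The b3 reruns of the treated double knockout, V and W, did not lie with libraries T, U and X of b2. Batch b3 has no grouped control library, so a shift between batches and a difference within the double knockout cannot be told apart here. Hmgcs1 was at 81.7 and 66.96 CPM in V and W against 120.2 to 137 in b2, Sc5d at 72.1 and 70.5 against 93.9 to 122, and Npc1 at 60.7 and 49.5 against 91.5 to 108. For Hmgcs1 and Sc5d the reruns lay within the range of the treated b2 control libraries, which ran from 65.8 to 83.01 and from 68.3 to 74.3 CPM. Sqle was at 134 and 133 CPM in V and W, against 159 to 179.6 in the treated and 178 to 189 in the resting b2 double knockout. With the reruns added to the b2 groups, 5 genes in all were called in the double knockout response in place of 8. Of these 2 rose and 3 fell, where Srebf1 and Scd2 alone had fallen without the reruns. Over all genes, 1752 were called in place of 2555. Npc1 then missed the threshold (adjusted p = 0.11), while Insig1 and Mylip remained called. Insig1 was at 169.7 and 162 CPM in V and W, below the 249 to 266 of b2 and below the treated b2 control libraries (196 to 216). The other b3 libraries, S of the treated SGK1 knockout (168 CPM) and J (188 CPM), lay below those control libraries as well.

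The response of the double knockout minus that of control cells in b2 passed in 7 of 32 genes, all with positive differences (of all genes, 1.66% had positive, 1.31% had negative differences and 2.97% were called in either direction). They were Hmgcs1 (0.75 ± 0.12 SE on the log2 scale, adjusted p = 9.75e-05), Sc5d (0.65 ± 0.12, adjusted p = 0.000792), Cyp51, the lanosterol demethylase (0.51 ± 0.12, adjusted p = 0.00694), Npc1, Mvd, Sqle and Lss (lanosterol synthase). The last 4 had differences of 0.49, 0.42, 0.31 and 0.31 with adjusted p from 0.0347 to 0.0401. With the reruns added to b2, 0 of these 7 passed, and over all genes 40 passed in place of 544. The difference was then 0.488 for Hmgcs1 (adjusted p = 0.353), 0.451 for Sc5d (0.304) and 0.321 for Cyp51 (0.517). Only treated knockout groups gained b3 libraries, without a batch term, so a batch shift and a smaller difference cannot be told apart. The Mvd call ended without any one of treated double knockout library T, resting double knockout libraries G and H, resting control libraries A and B and treated control libraries M and N, with no filter on low counts, with the reruns added and with its groups fitted alone, with adjusted p from 0.0529 to 0.498. The Sqle call ended without any one of treated double knockout libraries U and X, resting double knockout libraries G and I, resting control libraries A and C and treated control libraries M and N, with no filter on low counts, without libraries E, F, P and X, with the reruns added, with its groups fitted alone and with limma on TPM, with adjusted p from 0.0501 to 0.573. The Lss call ended without any one of treated double knockout libraries U and X, resting double knockout libraries G and I, resting control libraries A and C and treated control libraries K, L, M and N, with no filter on low counts, with the length trend removed, without libraries E, F, P and X, with the reruns added, with its groups fitted alone and with limma on TPM, with adjusted p from 0.0536 to 0.896. The Npc1 call ended without any one of treated double knockout libraries U and X, resting double knockout library I, resting control libraries A and C and treated control libraries K, L and N, with no filter on low counts, without libraries E, F, P and X, with the reruns added, with its groups fitted alone and with limma on TPM, with adjusted p from 0.0542 to 0.9. Of the 7 genes, 4 passed without U, X, G, I, C or M and 3 without A or N. Leaving out 1 library at a time, the calls on Hmgcs1, Sc5d and Cyp51 remained, but the Cyp51 call ended with its groups fitted alone (adjusted p = 0.067).

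**Figure D4:**
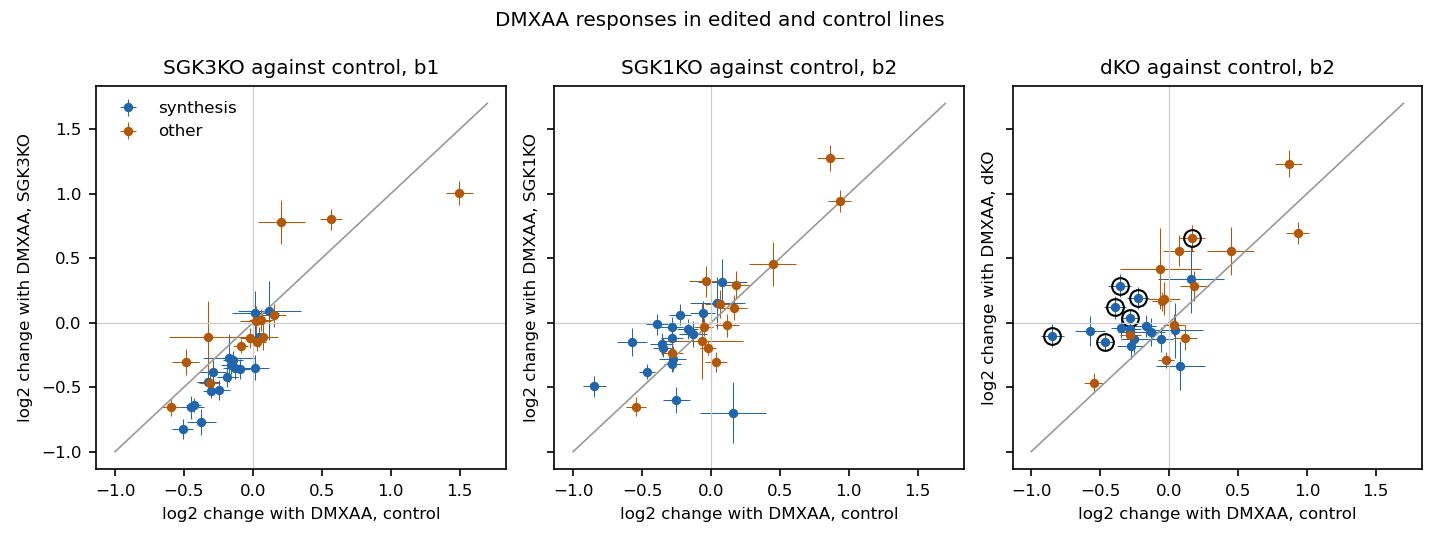
Log2 change with DMXAA in an edited line (vertical axis) against that in control cells of the same batch (horizontal axis) for the 32 tested genes, with bars of 1 SE, the line of equal change, and rings on genes whose difference passed the threshold. In b2, 7 genes of the double knockout carry rings, with Hmgcs1 at -0.85 in control cells and -0.10 in the double knockout; no gene is ringed for the SGK3 or SGK1 knockout.

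Over the 5 responses, each of which has its own resting and treated libraries, Insig1 and Mylip rose in all 5 and Scd2 fell in all 5. Hmgcs1, Sqle, Lss and Stard4 fell in 4. Pmvk, Ebp, Srebf2, Nr1h2 and Nr1h3 passed in none of the 5. In a given response, 4.74% to 12.5% of all genes rose and 3.06% to 11.6% fell. The share of all genes called alike over the 5 responses was not counted, so these repeats are given without a background.

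At rest, the SGK3 knockout had higher transcript levels of part of the synthesis pathway than control cells. Of 18 synthesis genes, 10 were higher (Hmgcs1, Mvd, Idi1, Fdft1, Sqle, Lss, Cyp51, Msmo1, Hsd17b7 and Sc5d) and 8 did not pass. The median was 0.28, with a range of -0.10 to 0.63, against 0.00 over all genes tested, of which 2.79% were higher, 2.03% were lower and 4.82% were called in either direction. In 16 of the 18, all knockout libraries lay above all control libraries, as in 14.5% of all genes. Hmgcs1 was at 174, 172 and 165 CPM in the knockout and 95.7, 128 and 107 in control cells (log2 fold change 0.63 ± 0.09 SE, adjusted p = 1.42e-06), without overlap. Mvd, which makes isopentenyl diphosphate, was at 110, 110.1 and 114 against 86.3, 83.7 and 86.3 CPM (log2 fold change 0.39 ± 0.09 SE, adjusted p = 0.00242), and Fdft1 at 68.6, 68.4 and 67.5 against 51.5, 54.3 and 48.5 CPM (log2 fold change 0.41 ± 0.12 SE, adjusted p = 0.0286). Neither gene's groups overlapped. The Fdft1 call ended without any one of resting control libraries 1 (0.11) and 3 (0.197) and resting SGK3 knockout libraries 1 (0.111), 2 (0.106) and 3 (0.0802). Outside synthesis, 3 genes were higher. Npc1 was at 75.3, 73.7 and 70.98 against 56.04, 57.6 and 59.97 CPM (log2 fold change 0.34 ± 0.10 SE, adjusted p = 0.0351), and Stard4 at 107, 99.4 and 92.6 against 75.8, 86.3 and 78.9 CPM (log2 fold change 0.31 ± 0.08 SE, adjusted p = 0.0166). Mylip was at 25.2, 22.1 and 22.04 against 20.02, 18.7 and 17.04 CPM (log2 fold change 0.32 ± 0.09 SE, adjusted p = 0.0217). All 3 were higher in every knockout library. The Npc1 call ended without any one of resting control libraries 1, 2 and 3 and resting SGK3 knockout libraries 1, 2 and 3 and with limma on TPM, with adjusted p from 0.0577 to 0.312. The Stard4 call ended without any one of resting control libraries 1 (0.141) and 3 (0.0882) and resting SGK3 knockout libraries 1 (0.165) and 2 (0.0575) and with limma on TPM (0.387 and 0.407). The Mylip call ended without any one of resting control libraries 2 (0.0593) and 3 (0.235) and resting SGK3 knockout library 1 (0.257) and with limma on TPM (0.14 and 0.135). In all, 13 genes were higher here, against 8 and 5 without control library 1 or 3 and 6 and 7 without knockout library 1 or 2. By limma from TPM values 5 were called, and 21 with these 2 groups fitted alone. Over all genes, 883 were called here and 2359 with these 2 groups fitted alone. With limma these were 772 on log2(TPM + 1) and 731 on log2(TPM + 0.1).

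At rest, 11 of 32 genes were called between the SGK1 knockout and control cells, 5 higher and 6 lower, a share not far from that of all genes. Of 18 synthesis genes, 5 were lower (Acat2, Pmvk, Mvd, Fdps and Msmo1) and Sc5d was higher, with a median of -0.08 against -0.01 over all genes, of which 11.3% were higher, 14.5% were lower and 25.8% were called in either direction. The synthesis median took the other sign with limma from TPM values (0.063 and 0.064). Fdps was at 296, 253 and 185 CPM in the knockout and 321, 334 and 303 in control cells (log2 fold change -0.38 ± 0.10 SE, adjusted p = 0.00435), with no overlap. Mvd was at 56.4, 46.8 and 48.5 against 63.4, 70.9 and 60.9 CPM (log2 fold change -0.36 ± 0.09 SE, adjusted p = 0.00233), also without overlap, and Pmvk, phosphomevalonate kinase, at 18.7, 8.3 and 11.7 against 21.1, 21.5 and 16.5 CPM with overlap (log2 fold change -0.61 ± 0.21 SE, adjusted p = 0.0323). The Fdps call ended without resting SGK1 knockout library F (0.137), without libraries E, F, P and X (0.696) and with its groups fitted alone (0.175). The Mvd call ended with the length trend removed (0.79), without libraries E, F, P and X (0.434), with its groups fitted alone (0.114) and with limma on TPM (0.0949 and 0.0987). The Pmvk call ended without any one of resting control libraries A and B and resting SGK1 knockout libraries E and F, with no filter on low counts, with the length trend removed, without libraries E, F, P and X, with its groups fitted alone and with limma on TPM, with adjusted p from 0.0542 to 1. Npc1 was at 71.6, 95.6 and 84.4 against 65.6, 56.99 and 66.9 CPM (log2 fold change 0.41 ± 0.10 SE, adjusted p = 0.00285), higher in each knockout library. Soat1, which esterifies cholesterol for storage, was at 202, 232 and 252 against 175, 158 and 200.2 CPM (log2 fold change 0.37 ± 0.12 SE, adjusted p = 0.0182), and Scap at 151, 166 and 165 against 130.2, 108 and 148 CPM (log2 fold change 0.32 ± 0.08 SE, adjusted p = 0.00506). Both were higher in every knockout library. The Npc1 call ended with the length trend removed (0.238), without libraries E, F, P and X (0.579) and with its groups fitted alone (0.109). The Soat1 call ended without any one of resting control libraries A (0.0632) and B (0.153) and resting SGK1 knockout library F (0.137), with the length trend removed (0.211), without libraries E, F, P and X (0.567) and with its groups fitted alone (0.121). The Scap call ended without resting control library B (0.126), without libraries E, F, P and X (0.367) and with its groups fitted alone (0.14). Without E, F, P and X, which leaves 1 knockout library (D), 0 genes were called. With 1 library left out the count ran from 3 to 16, and it was 7, 5, 7 and 3 without A, B, E or F; F also held 36.4 TPM of the summed hepatocyte markers.

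At rest, the double knockout differed from control cells in 2 of 32 genes, neither of them in synthesis (of all genes, 2.75% were higher, 3.51% were lower and 6.26% were called in either direction). Mylip was at 27.8, 29.9 and 26.7 CPM against 22.4, 21.5 and 22.5 (log2 fold change 0.35 ± 0.09 SE, adjusted p = 0.0083), and Scd2 at 1326, 1431 and 1300 against 1759, 1592 and 1825 CPM (log2 fold change -0.35 ± 0.08 SE, adjusted p = 0.00291). The groups of each gene lay apart. The 18 synthesis genes had a median of -0.10 with edgeR, 2 of them had an unadjusted p under 0.05, and DESeq2 called 3 of the 32 genes. The Mylip call ended without any one of resting double knockout library H (0.0883) and resting control library B (0.0554) and with its groups fitted alone (0.121). The Scd2 call ended with limma on TPM (0.218 and 0.215). Without double knockout library H or control library B, 1 gene was called.

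With DMXAA, 3 of the 5 efflux and LXR genes were higher in the SGK3 knockout than in control cells of b1, with a median of 0.55; of the 18 synthesis genes, Hmgcs1 alone passed, with a median of 0.09. Over all genes the median was -0.01, and of all genes 6.12% were higher, 4.7% were lower and 10.8% were called in either direction. Abca1 was at 13.3, 12.1, 11.98, 8.32 and 12.3 CPM in the knockout and 6.102, 5.78, 6.25, 7.13 and 8.68 in control cells (log2 fold change 0.76 ± 0.14 SE, adjusted p = 0.000129), and the groups overlapped in knockout library 4 and control library 5. Mylip was at 41.6, 38.8, 44.4, 38.5 and 40.6 against 27.4, 27.2, 28.3, 27.9 and 27.1 CPM (log2 fold change 0.55 ± 0.07 SE, adjusted p = 2.66e-08), without overlap. Nr1h3 was at 3.02, 2.35, 2.88, 2.77 and 4 against 1.804, 1.75, 1.22, 1.72 and 1.49 CPM, low in both groups but higher in each knockout library (log2 fold change 0.90 ± 0.25 SE, adjusted p = 0.00995). The Nr1h3 call ended without treated SGK3 knockout library 5 (0.0504). Hmgcs1 was at 96.8, 92.9, 106, 96.5 and 94.1 against 81.4, 73.2, 83.2, 76.8 and 72.5 CPM (log2 fold change 0.32 ± 0.07 SE, adjusted p = 0.000871), higher in each knockout library, and Npc1, with overlapping groups, was also higher (0.25 ± 0.08 SE, adjusted p = 0.0293).

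With DMXAA, 16 of 32 genes were called in the SGK1 knockout against b2 control cells, 11 higher and 5 lower, while of all genes 9.43% were higher, 11.4% were lower and 20.8% were called in either direction. The 18 synthesis genes had 4 higher (Hmgcs1, Sqle, Cyp51 and Sc5d) and 3 lower (Pmvk, Fdps and Tm7sf2), and a median of -0.05. That median took the other sign with TPM (0.036), after removal of the length trend or without library R of the knockout (0.021). All 3 detected trafficking and storage genes were higher. Their exon lengths were 11317 (Npc1), 9791 (Soat1) and 5586 bases (Stard4). The 3 lower synthesis genes had 1713 (Pmvk), 4208 (Fdps) and 4403 (Tm7sf2), and the 4 higher ones 4415 to 5546. Sc5d was at 92.2, 98.6, 87.8 and 109 CPM against 74.3, 72.6, 68.3 and 71.7 (log2 fold change 0.43 ± 0.08 SE, adjusted p = 4.22e-05), with no overlap. Soat1 was at 219, 288, 229 and 283 against 179, 191, 199 and 181 CPM (log2 fold change 0.44 ± 0.10 SE, adjusted p = 0.00129), Insig1 at 278, 265, 296 and 255 against 196, 214, 202 and 216 CPM (log2 fold change 0.40 ± 0.09 SE, adjusted p = 0.00077) and Abca1 at 27.1, 33.3, 29.3 and 34.8 against 21.5, 23.5, 21.5 and 23.2 CPM (log2 fold change 0.47 ± 0.16 SE, adjusted p = 0.0278). Each of these was higher in every knockout library. Tm7sf2 was at 3.12, 3.35, 4.51 and 1.84 against 7.37, 3.77, 2.93 and 6.03 CPM (log2 fold change -0.65 ± 0.22 SE, adjusted p = 0.0345) with overlap, and Pmvk at 17.4, 14.9, 15.9 and 9.56 against 19.01, 25.1, 18.4 and 19.4 CPM (log2 fold change -0.50 ± 0.18 SE, adjusted p = 0.0466), lower in every knockout library. The Soat1 call ended with the reruns added (0.183). The Insig1 call ended with the reruns added (0.133). The Abca1 call ended without any one of treated control libraries K (0.0643) and M (0.0552) and treated SGK1 knockout libraries P (0.0784) and R (0.0912), with the length trend removed (0.129) and with the reruns added (0.219). The Tm7sf2 call ended without any one of treated control libraries K and N and treated SGK1 knockout libraries O, P and R, with no filter on low counts, with the reruns added, with its groups fitted alone and with limma on TPM, with adjusted p from 0.0514 to 0.259. The Pmvk call ended without any one of treated control libraries K, L and N and treated SGK1 knockout libraries P and R, with no filter on low counts, with the length trend removed, with the reruns added, with its groups fitted alone and with limma on TPM, with adjusted p from 0.0563 to 0.209. The rerun of this group, S, had 71.3 CPM of Sc5d, 147 of Soat1, 168 of Insig1 and 18.6 of Abca1, each below the lowest b2 library of the knockout. With S, V and W added to b2, 3 of the 32 genes were called in place of 16, and over all genes 1837 in place of 3815. Of the 32, 10 and 9 were called without control library N or knockout library R.

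The double knockout with DMXAA was compared with control cells in both batches. In b1, 5 of 18 synthesis genes were higher (Hmgcs1, Idi1, Sqle, Lss and Msmo1), with a median of 0.15 against -0.01 over all genes, of which 7.15% were higher, 6.21% were lower and 13.4% were called in either direction. Hmgcs1 was at 110.4, 104, 99.97, 104 and 99.01 CPM against 81.4, 73.2, 83.2, 76.8 and 72.5 (log2 fold change 0.41 ± 0.07 SE, adjusted p = 1.76e-05), and Sqle at 155, 168, 159, 155 and 148 against 128, 128, 127, 121 and 122 CPM (log2 fold change 0.32 ± 0.05 SE, adjusted p = 3.46e-06). Both were higher in every double knockout library. Idi1, which isomerises isopentenyl diphosphate, was at 112, 108, 109, 108 and 101 against 103, 86.1, 89.1, 91.6 and 86.02 CPM, with overlap (log2 fold change 0.23 ± 0.07 SE, adjusted p = 0.0131). Mylip was at 40.4, 44.2, 45.5, 39.5 and 35.5 against 27.4, 27.2, 28.3, 27.9 and 27.1 CPM (log2 fold change 0.56 ± 0.07 SE, adjusted p = 1.47e-08), and Stard4 at 77.5, 79.5, 81.1, 75.1 and 79.9 against 70.3, 66.8, 63.9, 66.3 and 55.99 CPM (log2 fold change 0.27 ± 0.07 SE, adjusted p = 0.00237), each without overlap. Scd2 was lower, at 908, 896, 871, 878 and 967 against 1063, 1131, 1019, 931 and 938 CPM, with overlap (log2 fold change -0.18 ± 0.06 SE, adjusted p = 0.0455). The Idi1 call ended with the length trend removed (0.12) and with limma on TPM (0.0859 and 0.0878). The Stard4 call ended with limma on TPM (0.144 and 0.146). The Scd2 call ended without any one of treated double knockout libraries 1, 2, 3 and 4 and treated control libraries 1, 2 and 3, with no filter on low counts and with limma on TPM, with adjusted p from 0.0708 to 0.207. Without double knockout library 1 or 3, or control library 1, 5 of the 32 genes were called in place of 8.

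In b2, 7 of 18 synthesis genes were higher in the treated double knockout (Hmgcs1, Mvd, Fdft1, Sqle, Lss, Cyp51 and Sc5d) and 2 lower (Fdps and Ebp), with a median of 0.07 against -0.03 over all genes, of which 10% were higher, 11.6% were lower and 21.6% were called in either direction. Hmgcs1 was at 124, 137 and 120.2 CPM against 73.6, 66.5, 83.01 and 65.8 (log2 fold change 0.81 ± 0.08 SE, adjusted p = 1.94e-10), and Sc5d at 93.9, 97.9 and 122 against 74.3, 72.6, 68.3 and 71.7 CPM (log2 fold change 0.55 ± 0.08 SE, adjusted p = 1.76e-06). Neither overlapped. Ebp, a sterol isomerase, was lower, at 33.1, 33.9 and 14.5 against 42.97, 45.8, 32.5 and 41.2 CPM, with overlap and with its lowest value in library X (log2 fold change -0.58 ± 0.18 SE, adjusted p = 0.0152). Npc1 was at 91.5, 101 and 108 against 70.3, 69.2, 78.6 and 67.3 CPM (log2 fold change 0.49 ± 0.09 SE, adjusted p = 8.5e-05), without overlap, and Soat1 at 198, 217 and 319 against 179, 191, 199 and 181 CPM (log2 fold change 0.38 ± 0.11 SE, adjusted p = 0.00809), with overlap and with its highest value in library X, which also held 31.5 TPM of the summed hepatocyte markers. Srebf1 was lower in every double knockout library, at 204, 217 and 197 against 252, 282, 282 and 255 CPM (log2 fold change -0.38 ± 0.06 SE, adjusted p = 1.21e-06). The Ebp call ended without any one of treated double knockout library X (0.245) and treated control library L (0.0527), without libraries E, F, P and X (0.0864), with the reruns added (0.199) and with its groups fitted alone (0.225). The Npc1 call ended with the reruns added (0.362). The Soat1 call ended without treated double knockout library X (0.443), without libraries E, F, P and X (0.335), with the reruns added (0.758) and with its groups fitted alone (0.118). With the reruns added, 7 genes were called in place of 16, of which 3 were higher and 4 lower. Over all genes, 2615 were then called in place of 3961.

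Higher calls against control cells of the same batch were shared by 4 genes, Hmgcs1, Lss, Sqle and Stard4, out of 7 in b1 and 12 in b2. Scd2 was lower in both, out of 1 in b1 and 4 in b2. Of all genes, 7.15% were higher in b1 and 10% in b2, and 6.21% and 11.6% were lower. The share of all genes called in both batches was not counted. The double knockout effect in b1 minus that in b2 passed in 5 of 32 genes (of all genes, 4.38% had positive, 2.89% had negative differences and 7.27% were called in either direction). It was negative for Hmgcs1 (-0.40 ± 0.11 SE, adjusted p = 0.0136), Sc5d (-0.39 ± 0.11, adjusted p = 0.0167) and Insig1 (-0.42 ± 0.12, adjusted p = 0.0289). It was positive for Srebf1 (0.43 ± 0.07, adjusted p = 7.9e-05) and Mylip (0.46 ± 0.11, adjusted p = 0.00389). With the reruns added to b2, Hmgcs1, Sc5d and Insig1 no longer passed (adjusted p = 0.83, 0.625 and 0.719), and over all genes 340 passed in place of 1332. The Hmgcs1 call ended without treated double knockout b2 library U (0.0823) and with the reruns added (0.83). The Sc5d call ended without treated double knockout b2 library X (0.217), without libraries E, F, P and X (0.152), with the reruns added (0.625) and with limma on TPM (0.0523). The Insig1 call ended without any one of treated double knockout b1 libraries 4 and 5, treated double knockout b2 libraries U and X and treated control b2 library K, with the reruns added and with its groups fitted alone, with adjusted p from 0.0534 to 0.719. The Srebf1 call ended with limma on TPM (0.0543). The Mylip call ended with the length trend removed (0.0543) and with limma on TPM (0.113 and 0.121). Without double knockout library X of b2, 3 of the 32 genes passed.

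**Figure D5:**
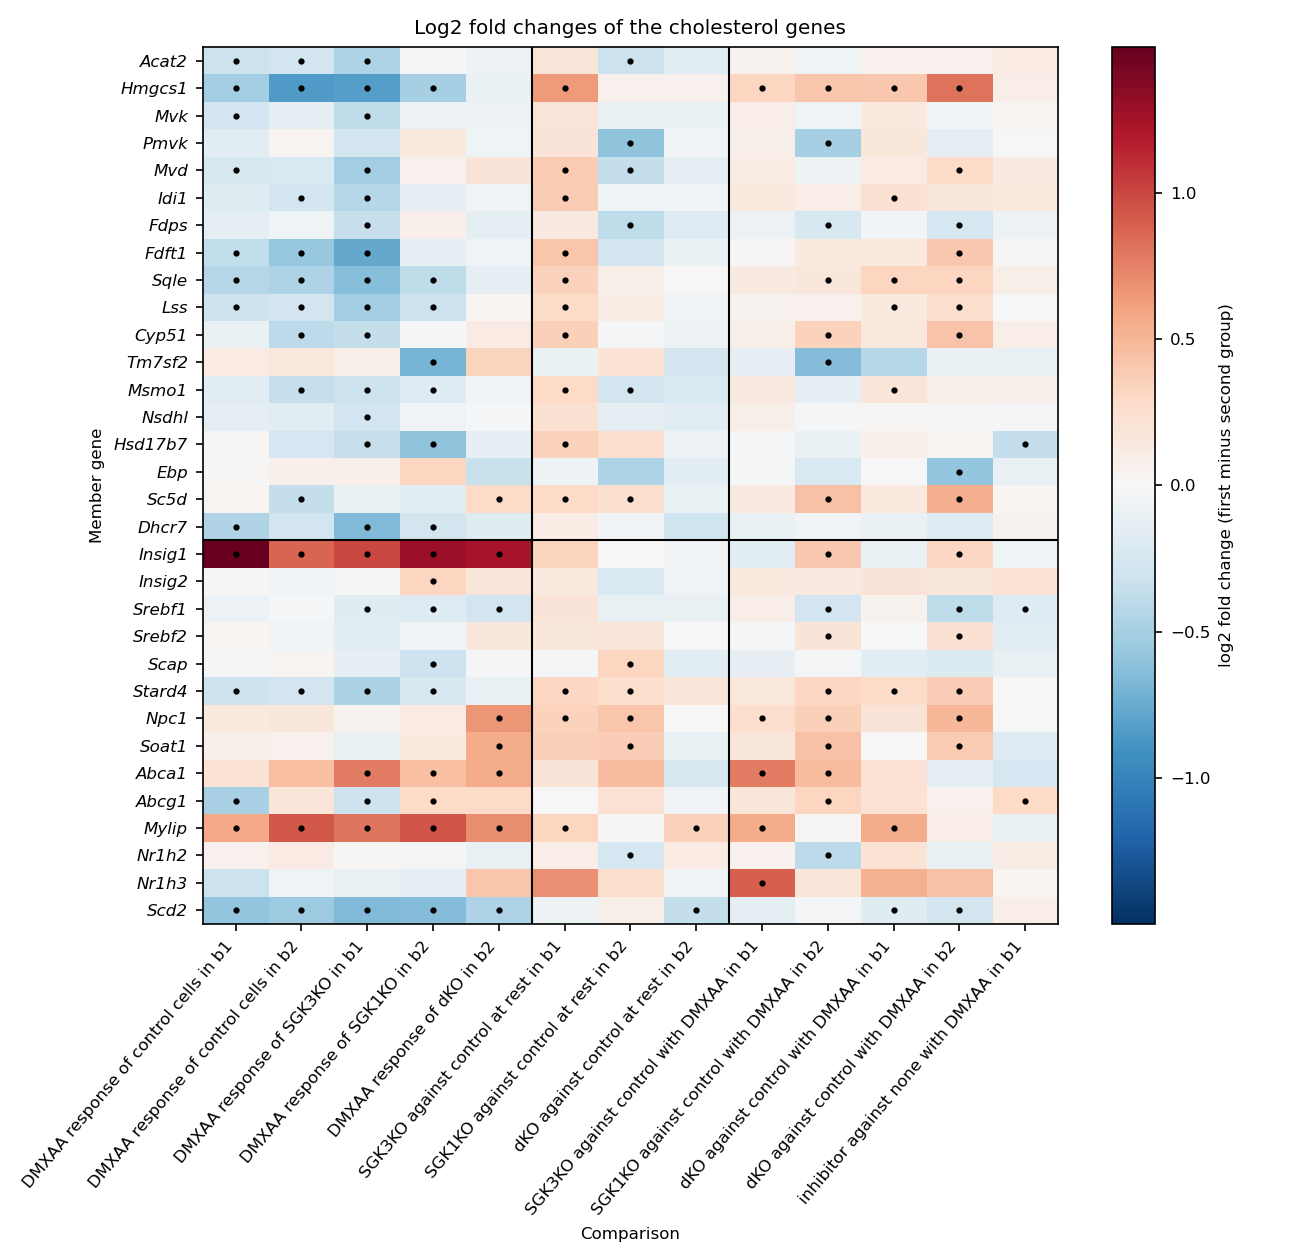
Log2 fold change of the 32 tested genes (synthesis genes above the horizontal line) in the 13 comparisons; red is higher and blue lower, and a dot marks an adjusted p under 0.05. The vertical lines part responses to DMXAA, knockouts against control cells at rest, and knockouts or inhibitor against control cells with DMXAA; the SGK3 knockout at rest carries 13 dots and the inhibitor 3.

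Control cells given the SGK inhibitor before DMXAA differed from control cells with DMXAA alone in 3 of 32 genes, 1 higher and 2 lower (of all genes, 3.7% were higher, 4.81% were lower and 8.51% were called in either direction), where the 18 synthesis genes had a median of 0.04 with a range of -0.36 to 0.16. Hsd17b7 was at 29.98, 36.1, 38.99, 34.9 and 34.1 CPM with inhibitor and 41.4, 46.7, 45.6, 49.2 and 40.2 without (log2 fold change -0.36 ± 0.08 SE, adjusted p = 0.00258), lower in every library. Srebf1 was at 149, 159, 165, 155 and 150.4 against 182, 187, 180.1, 168 and 168 CPM (log2 fold change -0.19 ± 0.05 SE, adjusted p = 0.00485), also lower in every library. Abcg1 was at 192, 184, 202, 177 and 188 against 172, 180.3, 150, 124 and 140.1 CPM, with overlap (log2 fold change 0.30 ± 0.09 SE, adjusted p = 0.0242). The Abcg1 call ended without any one of inhibitor libraries 1 and 3 and treated control libraries 3, 4 and 5 and with limma on TPM, with adjusted p from 0.0558 to 0.152. Hmgcs1, which was higher in both edited lines of b1 with DMXAA, gave 0.10 ± 0.07 SE with inhibitor (adjusted p = 0.544), and Mylip gave -0.11 ± 0.07 (adjusted p = 0.453).

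Outside the 33 genes, 47 further genes of lipid and sterol metabolism in 5 lists were read, of which 46 were tested. In control cells with DMXAA, 7 rose and 5 fell in b1, where 21.1% of all genes were called, and 1 rose and 3 fell in b2, where 7.8% were. In the list of scavenger uptake and sterol transport, 6 of 13 tested genes rose and 0 fell in b1, where 10.8% of all genes rose. In b2, 0 of these 13 passed. In both batches 2 of 11 fatty acid synthesis genes fell, with Scd1, a desaturase related to Scd2, at -0.34 ± 0.10 SE in b1 (adjusted p = 0.0131) and -0.44 ± 0.11 in b2 (adjusted p = 0.0043). Of 4 further LXR targets, Smpdl3a, a phosphodiesterase gene, rose in both batches (0.64 ± 0.16 SE, adjusted p = 0.00195, and 0.74 ± 0.16, adjusted p = 0.00157). In the SGK3 knockout 5 of the 46 rose and 6 fell with DMXAA, in the SGK1 knockout 4 rose and 12 fell, and in the double knockout 5 rose and 2 fell, where 16.5%, 24.1% and 14% of all genes were called. At rest, where 10 synthesis genes of cholesterol were higher in the SGK3 knockout, 1 of 11 fatty acid synthesis genes was, Fasn (0.40 ± 0.12 SE, adjusted p = 0.0469).

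Among the further LXR targets, Arl4c, a small GTPase gene, was lower in each edited line than in control cells of its batch. At rest it ran from 3.98 to 5.99 CPM in b1 control cells and from 0 to 0.301 in the SGK3 knockout (adjusted p = 9.96e-05). In b2 it ran from 3.41 to 4.97 CPM in control cells, from 0 to 0.294 in the SGK1 knockout (adjusted p = 7.85e-05) and from 0 to 0.0423 in the double knockout (adjusted p = 2.98e-06). No edited library of b1 or b2 reached the level of any control library, at rest or with DMXAA. Smpdl3a and Pltp, a phospholipid transfer protein gene, were instead higher in the double knockout, without overlap, at rest (log2 fold change 0.67, adjusted p = 0.011, and 0.92, adjusted p = 7.46e-10) and with DMXAA in b1 (1.20, adjusted p = 2.63e-09, and 0.99, adjusted p = 2.79e-14) and b2 (0.58, adjusted p = 0.0054, and 0.92, adjusted p = 4.13e-11). Lpcat3, the remaining gene of this list, was lower in the double knockout, without overlap, at rest and with DMXAA in b2, and did not pass in b1. Of the 4 genes, 1 was also higher in the SGK3 knockout, at rest (0.698) and with DMXAA (0.749). Of all genes, 2.79% and 6.12% were higher there. In the SGK1 knockout 0 of the 4 were called higher. With the inhibitor 2 were lower and 0 higher, where 4.81% of all genes were lower. Nceh1, which encodes a cholesteryl ester hydrolase, was higher in the SGK3 knockout at rest (0.62 ± 0.12 SE, adjusted p = 0.000301) and with DMXAA (0.73 ± 0.09, adjusted p = 4.11e-08), and in the SGK1 knockout with DMXAA (0.61 ± 0.10, adjusted p = 1.52e-05).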

How the data were processed

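The deposited values were estimated counts and TPM per gene for 50 poly-A libraries. Per the submitters' processing notes, the authors used STAR 2.7.9a, StringTie 2.2.0 and the GRCm39 build to make them; how each tool was set, and whether counting used strand, is not given in the sources used here. The deposited expected counts were already whole numbers. The deposited TPM were used only for levels, markers and alternative tests. Replicates are those of the labels, which do not say that they were separate cultures, so the p-values cover the spread among these libraries, which may be technical.

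The 46 grouped libraries of batches b1 and b2 were fitted together in edgeR 4.0.16 (R 4.3.3) with 1 coefficient per group and batch, TMM scaling, filterByExpr and robust quasi-likelihood F tests. Of 55416 genes, 18315 were tested, with Benjamini-Hochberg adjustment over all of them and a threshold of 0.05, in 13 comparisons and 5 differences of effects. Adjusted p are from this test unless another tool is named, and all tests were two-sided. CPM were computed from the counts with TMM library sizes. The 33 genes and the other lists were chosen with earlier results of these data known. In each comparison, the 3 synthesis genes and the 3 other members with the largest log2 fold change past the threshold are named, with at most 1 gene from each further list; other genes were named after their values were seen. No 2 libraries held identical values. On simulated counts of 18315 genes for the SGK3 knockout against control cells with DMXAA, a log2 change of 0.5 was recovered in 64% of 100 altered genes and a change of 1 in 90% of 100, with 4 false calls; for the SGK1 knockout at rest these were 49%, 86% and 7. The simulated counts were drawn from each gene's mean over all libraries, without length trends, and no low-count gene was altered. The false calls of the real comparisons, such as those with libraries E and F, therefore cannot be read from them. Trends with transcript length used exon lengths matched to 52083 of the genes. Alternatives were DESeq2 1.42.0, DESeq2 size factors, limma 3.58.1 on log2(TPM + 1) and log2(TPM + 0.1), no filter, each comparison's groups alone, a removed length trend, each library left out, a replicate block, the 4 libraries with length slopes above 0.1 left out and, added after seeing the data, the b3 reruns. The reruns joined the b2 groups of the treated SGK1 and double knockouts without a batch term and without a b3 control. A batch shift therefore cannot be told apart from a changed effect in that alternative. Library J entered no comparison.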

Additional observations from a re-analysis of the deposited data

Results flagged for a closer look

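In groups of 4 or 5 libraries, 138 combinations of a named gene and a group were checked for a library far from the others, and 9 had one; chance alone gives about 1 in 20. The lowest library stood apart for Abca1 in treated SGK3 knockout library 4 (8.32 CPM), Insig1 in treated SGK3 knockout library 5 (223 CPM), Dhcr7 in treated SGK1 knockout library R (44.3 CPM), Fdft1 in treated SGK1 knockout library P (28.7 CPM) and Nr1h3 in treated SGK1 knockout library Q (1.71 CPM). The highest library stood apart for Dhcr7 in inhibitor library 3 (62.5 CPM), Ebp in treated b1 control library 3 (45.2 CPM), Fdps in treated b1 double knockout library 1 (387 CPM) and Pmvk in treated b2 control library L (25.1 CPM).

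The DMXAA response differed between the double knockout and control cells of b2, on the log2 scale, for Hmgcs1 (0.75), Sc5d (0.65), Cyp51 (0.51), Npc1 (0.49), Mvd (0.42), Sqle (0.31) and Lss (0.31). With the b3 reruns in the b2 groups none of the 7 passed, and over all genes 40 passed in place of 544. The response of control cells differed between b1 and b2 for Insig1 (0.63), Sc5d (0.40) and Abcg1 (-0.67). The double knockout effect with DMXAA differed between b1 and b2 for Mylip (0.46), Srebf1 (0.43), Insig1 (-0.42), Hmgcs1 (-0.40) and Sc5d (-0.39).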

How the results depend on the processing

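Of 82 named results, 40 kept their call under every alternative run; over 1450 alternative values 1224 kept the call, 226 lost it and 0 changed sign. The number called over all genes also moved with the setting. For the SGK3 knockout at rest it went from 883 to 2359 with the groups fitted alone. For the response difference of the double knockout it went from 544 to 40 with the reruns added. The numbers of the 32 genes called that moved by over 1.5 times, or crossed between some and none, were these, and causes were not tested beyond what each alternative shows. Without libraries E, F, P and X, 7 were called in the SGK1 knockout response and 0 between SGK1 knockout and control at rest, both with 1 resting knockout library left, and 5 with the inhibitor. With a comparison's groups fitted alone, the counts were 6 for the SGK1 knockout response, 3 for the double knockout response, 21, 0 and 1 for the SGK3, SGK1 and double knockouts at rest, 9 for the SGK1 knockout with DMXAA, 17 and 10 for the double knockout with DMXAA in b1 and b2, 6 for the inhibitor, and 1 and 2 for the response differences of the SGK3 and double knockouts. With the reruns added, chosen after seeing the data, they were 5 for the double knockout response, 3 and 7 for the SGK1 and double knockouts with DMXAA in b2, 0 for the response difference of the double knockout and 2 for its effect in b1 minus b2. With limma on TPM they were 5 and 1 for the SGK3 and double knockouts at rest, 3 for the double knockout with DMXAA in b1, 4 for its response difference and, with a pseudocount of 0.1, 2 for its effect in b1 minus b2. With the length trend removed they were 5 and 4 for the SGK1 and double knockouts at rest, 5 for the inhibitor and 2 for the SGK1 response difference. With DESeq2 they were 1 and 1 for the SGK3 and SGK1 response differences, 5 for control cells in b1 minus b2 and 8 for the double knockout effect in b1 minus b2. Without a filter on low counts, 3 passed in the double knockout response difference.

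Leaving out 1 library gave 10 to 14 calls in the SGK1 knockout response, 5 to 12, 3 to 16 and 1 to 2 for the SGK3, SGK1 and double knockouts at rest, 9 to 16 for the SGK1 knockout with DMXAA, 5 to 8 for the double knockout with DMXAA in b1, 0 to 5 and 3 to 8 for the response differences of the SGK1 and double knockouts, and 3 to 7 for the double knockout effect in b1 minus b2. The synthesis median turned positive for the SGK1 knockout at rest with limma on TPM (0.063 and 0.064), and for the SGK1 knockout with DMXAA on the TPM scale (0.036 and 0.037), after removal of the length trend (0.072) and, among values from -0.088 to 0.021 with 1 library left out, without library R. TPM + 0.1 took the median of all genes from -0.01 to 0.10 for the SGK1 knockout at rest.

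Same-numbered b1 libraries did not deviate together: over 57 pairs r ran from -0.299 to 0.269, 7 pairs were over 0.1, and 8 of 26 libraries correlated best with their own number. With a replicate block, 1 gene passed in the SGK3 knockout response difference in place of 0, and the Scd2 call between double knockout and control cells with DMXAA in b1 ended (adjusted p = 0.0607). Genes at low counts, such as Nr1h3, Abca1 and Tm7sf2, are the least precise here.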

Other observations

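Library J of b3, whose labels disagree on treatment, was at 70.05 CPM of Hmgcs1, 188 of Insig1, 47.6 of Mylip, 1154 of Scd2 and 25.8 of Sgk1. In the same order, resting b2 control libraries ran from 119 to 139, 109 to 115, 21.5 to 22.5, 1592 to 1825 and 1.05 to 3.05 CPM. Treated b2 control libraries ran from 65.8 to 83.01, 196 to 216, 40.8 to 44.3, 1067 to 1252 and 25.5 to 39.4 CPM. The treatment of J, which is of another batch, was not tested.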
